A study of Mus musculus with 6 samples.

Results

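The microRNAs miR-7 and miR-671 were examined as the 2 miRNA families that pair with the circular RNA Cdr1as. The set was chosen by name and holds 4 of the 1189 entries in the miRNA table, namely mmu-miR-7a-5p, mmu-miR-7b-5p, mmu-miR-671-5p and mmu-miR-671-3p. All 4 were detected in every library. None of them passed the limits for a differentially expressed miRNA in the PND group.

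A small RNA library was sequenced from the prefrontal cortex of each of 3 mice in the PND group and 3 mice in the CON group, where PND stands for postoperative neurocognitive disorder. All were male wild type C57BL/6 mice, aged 18 months by their age label, while the sample titles carry 17. PND mice breathed 1.5% isoflurane for 30 min and then underwent an exploratory laparotomy of 30 min under the same anesthetic. Lidocaine and povidone iodine were put on the wound afterwards. CON mice were given neither anesthesia nor operation at this stage. Because there was no sham group, the effects of anesthesia, surgery and wound care cannot be told apart. Both groups went through the same behavioral tests. Fear conditioning training with foot shocks was done on the day before the operation, and the other tests came after it. When these had ended, the mice of both groups were put under deep isoflurane anesthesia and perfused with saline, and the tissue was taken. Levels are given as CPM, the reads of a miRNA scaled to a fixed total of reads assigned to any miRNA in that library.

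miRNAs guide Argonaute proteins to RNAs that pair with their seed, the bases from position 2 to position 8. Cdr1as is a circular RNA that is abundant in neurons and carries a dense array of miR-7 seed sites, which bind miR-7 without cutting the circle. miR-671-5p pairs with Cdr1as almost along its whole length and can direct Argonaute 2 to slice it. Cyrano is a long noncoding RNA with an extended miR-7 site that triggers degradation of miR-7, and in mice without Cyrano miR-7 accumulates while Cdr1as is depleted. In mice without Cdr1as, lower miR-7 and higher miR-671 have been described in the brain. The study also sequenced circRNA and mRNA libraries from prefrontal cortex, but only the miRNA libraries were analysed here. Levels of Cdr1as and Cyrano themselves were therefore not examined.

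The 4 mature sequences are shown because the seeds decide which sites each arm can use, with the seed in capitals, read 5′ to 3′ from RefSeq on GRCm38.p6. All 4 members were matched by name.
miR-7a-5p: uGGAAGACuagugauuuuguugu
miR-7b-5p: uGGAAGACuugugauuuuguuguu
miR-671-5p: aGGAAGCCcuggaggggcuggag
miR-671-3p: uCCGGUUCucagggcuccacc

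miR-7a-5p and miR-7b-5p carry the same seed, and across the 23 bases that they share they differ only by A10U, counted from the 5′ end. Among the 1679 mature mouse miRNAs in the sequence table, no miRNA other than these 2 has this seed, and none other than miR-671-5p or miR-671-3p has theirs. The seeds of miR-7 and miR-671-5p are equal at 6 of 7 bases and differ by A7C, counted from the 5′ end of the miRNA. The miR-7 arms are poor in G and C, at 34.8% for miR-7a-5p and 33.3% for miR-7b-5p, whereas the share is 69.6% in miR-671-5p and 66.7% in miR-671-3p. How reads that match both miR-7 arms were assigned is not given in the sources used here, so the split between miR-7a and miR-7b is less certain than their sum.

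The members come from 4 hairpins (GRCm38.p6, GENCODE M21 annotation). miR-7a-5p is made from Mir7-1, at chr13:58392779-58392886 on the minus strand in an intron of Hnrnpk, which encodes an RNA-binding protein. The identical mature sequence is also made from Mir7-2, at chr7:78888277-78888373 on the plus strand, where no annotated gene overlaps and the nearest coding gene on record, Aen, is 7481 bp away. miR-7b-5p is made from Mir7b, at chr17:56242988-56243098 on the plus strand, which again overlaps no other gene and lies 13712 bp from Fem1a. Mir671 lies at chr5:24592114-24592211 on the plus strand within a coding exon of Chpf2, which encodes a chondroitin-synthesizing enzyme. Both miR-671 arms come from Mir671, and the gene Smarcd3 on the minus strand also overlaps it. Reads from this locus could also arise from the Chpf2 mRNA, which was not measured in these libraries.

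The sites in the reference RNAs are shown next because they set the members' relation to Cdr1as and Cyrano. The Cdr1as exon (chrX:61183248-61186174, plus strand, 2927 bases, GRCm38.p6) was taken as an exon of transcript C230004F18Rik-206, opposite the Cdr1 gene. It held the miR-7 seed site GTCTTCC 123 times on its own strand and 0 times on the opposite strand. The first 2927 bases of 25516 other mouse transcripts were searched the same way. Of these windows 23.9% held the site at least once, and the highest number was 4, in Col5a1. Neighbouring sites in the Cdr1as exon were a median of 18 bases apart, with a range of 17 to 109 bases. The site with the most miR-7a-5p pairs, with paired bases in capitals, was paired at 16 of 23 bases of the miRNA (chrX:61183571-61183593), and the median over the 123 sites was 13.
Cdr1as site of miR-7a-5p: tCcAgAAAAatcCaAGTCTTCCA

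The miR-671-5p seed site GGCTTCC occurred once in the Cdr1as exon, starting a pairing of 19 of 23 bases at chrX:61186029-61186051, and 29.3% of the transcript windows held this seed site. The seed site of miR-671-3p, GAACCGG, was not found in the exon and was held by 8.51% of the windows. In Cyrano (transcript 1700020I14Rik-202, chr2:119594303-119607502, plus strand), miR-7a-5p paired at 21 of 23 bases across a block of 8 bases at the seed and one of 13 bases at the 3′ end, with 2 bases of the miRNA and 4 of the site left unpaired (chr2:119602137-119602161). With miR-7b-5p, 22 of 24 bases were paired. A match of letters describes the sequence and does not show that the site was used in these mice. The 2 extended sites are printed with paired bases in capitals.
Cdr1as site of miR-671-5p: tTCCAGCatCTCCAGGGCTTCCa
Cyrano site of miR-7a-5p: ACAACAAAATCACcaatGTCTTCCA

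**Figure D1:**
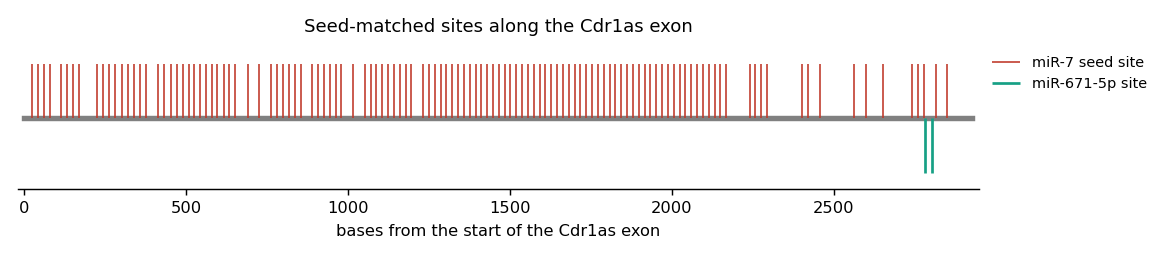
Positions of seed-matched sites along the Cdr1as exon, in bases from its start (x axis). Red lines above the bar mark the 123 miR-7 seed sites, and the 2 green lines below it mark the first and last base of the single miR-671-5p site, at bases 2782 and 2804, near the 3′ end of the exon.

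The libraries held 14849461 to 19471226 reads assigned to miRNAs, and each PND library was deeper than each CON library. The most abundant entry in all 6 was miR-128-3p, at 17.6% to 29.2% of reads, so a neuron-enriched miRNA led every library. The library of CON mouse 2 stood apart. It had the highest share of miR-128-3p and was the lowest of the 6 libraries for 244 of the 361 entries that averaged 10 CPM or more (67.6%). In the PND group, the library of mouse 3 was the highest of the 6 for 159 of these 361 entries (44.0%). The library of CON mouse 1 stood apart by miR-200 family and miR-183 cluster markers of olfactory or epithelial tissue, which summed to 1646 CPM there and to 67.0 to 198 CPM in the other 5 libraries. The differences of the members, their ratios, the opposite arms and the miRNA lists below are therefore also given without CON mouse 2. Those of the members, their ratios and the opposite arms are given without CON mouse 1 as well. Replicates are separate mice, and since the tissue is bulk cortex, fewer cells of a type and less RNA per cell cannot be told apart.

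miR-7a-5p was among the most abundant miRNAs of the cortex, ranking at position 11 of 1189 by mean level. It was measured at 16417, 19458 and 21632 CPM in PND mice 1 to 3 and at 18993, 9771 and 18591 CPM in CON mice 1 to 3. The groups overlapped, and CON mouse 2 was far below the other 5 libraries. The PND mean was 19169 ± 2620 CPM and the CON mean 15785 ± 5212 CPM (SD, n = 3 each). miR-7a-5p thus took 0.977% to 2.16% of all miRNA reads, and the highest library was 2.21 times the lowest.

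The log2 fold change of miR-7a-5p on the log2(CPM + 1) scale was 0.33 in PND against CON (SE 0.25, 95% interval −0.25 to 0.92), with an adjusted p of 0.768 by limma over all 1189 entries. The unadjusted limma p was 0.223 and the exact two-sided permutation test over the 6 libraries gave p = 0.4, where 0.1 is the smallest value that 3 against 3 mice can give. The log2 fold change was 0.02 (SE 0.13) when CON mouse 2 was left out, and 0.50 (SE 0.30) when CON mouse 1 was left out instead. The level in CON mouse 2 was 52.0% of the mean of the other 2 CON mice, and 61.2% after TMM scaling, which corrects for the large share of reads taken by a few miRNAs. The spread within groups was 0.41 on the log2 scale (SD), against a median of 0.12 over 13 entries of similar level.

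miR-7b-5p, the second source of the miR-7 seed, ranked at position 39. Its levels were 3674, 4110 and 4328 CPM in PND mice 1 to 3 and 4113, 2795 and 3745 CPM in CON mice 1 to 3. CON mouse 2 was again the lowest library, and the other 5 libraries overlapped between groups. The means were 4037 ± 333 CPM and 3551 ± 680 CPM (SD, n = 3 each). The log2 fold change was 0.20 (SE 0.15, 95% interval −0.15 to 0.55), with p = 0.226 and an adjusted p of 0.768 by limma, and the exact permutation test gave p = 0.5. Without CON mouse 2 it was 0.04 (SE 0.10).

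Since both arms offer the same seed, their sum gives the seed's share of the library. The sum was 20090, 23568 and 25960 CPM in PND mice 1 to 3 and 23106, 12567 and 22336 CPM in CON mice 1 to 3. This corresponds to 2.01% to 2.60% of miRNA reads in the PND mice, 2.31% and 2.23% in CON mice 1 and 3 and 1.26% in CON mouse 2. The group means were 23206 ± 2952 CPM and 19336 ± 5875 CPM (SD, n = 3 each), and the CON mean was 22721 ± 544 CPM without mouse 2 (n = 2). No test was run on this sum. miR-7a-5p supplied 77.8% to 83.3% of it.

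miR-671-5p, the arm that pairs with Cdr1as, was present at a low level and ranked at position 332. It was measured at 14.4, 14.7 and 16.9 CPM in PND mice 1 to 3 and at 14.1, 10.4 and 11.4 CPM in CON mice 1 to 3. Every PND mouse lay above every CON mouse, but the gap between PND mouse 1 and CON mouse 1 was narrow. These levels rest on 155 to 299 reads, so that counting error alone was 8.03% in the shallowest case. The means were 15.3 ± 1.34 CPM and 12.0 ± 1.89 CPM (SD, n = 3 each).

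For miR-671-5p the log2 fold change was 0.34 (SE 0.16, 95% interval −0.04 to 0.72), with an adjusted p of 0.768 by limma. The unadjusted limma p was 0.0702 and the exact permutation test gave p = 0.1, the smallest it can give here. Groups that do not overlap with PND above CON were seen for 7.91% of all entries and for 8.59% of the 361 entries averaging 10 CPM or more. The opposite order, which none of the 4 members showed, was seen for 2.02% and 0.277%. The log2 fold change of miR-671-5p came to 0.26 (SE 0.15) once CON mouse 2 was left out. With CON mouse 1 left out instead it was 0.46 (SE 0.13), with an unadjusted limma p of 0.0171 and an adjusted p of 0.570. After TMM scaling the PND mice still lay above the CON mice, at 13.8 CPM or more against 13.6 CPM or less.

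miR-671-3p, the opposite arm of the same hairpin, was the more abundant one and ranked at position 196. Its levels were 101, 90.6 and 79.0 CPM in PND mice 1 to 3 and 102, 112 and 95.4 CPM in CON mice 1 to 3. Here CON mouse 2 was the highest library and PND mouse 3 the lowest, the reverse of the other 3 members, and the groups overlapped. The means were 90.4 ± 11.2 CPM and 103 ± 8.50 CPM (SD, n = 3 each). The log2 fold change was −0.19 (SE 0.14, 95% interval −0.51 to 0.12), with p = 0.195 and an adjusted p of 0.768 by limma, and the exact permutation test gave p = 0.2. Leaving out CON mouse 2 gave −0.13 (SE 0.13), and leaving out CON mouse 1 instead gave −0.20 (SE 0.15).

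**Figure D2:**
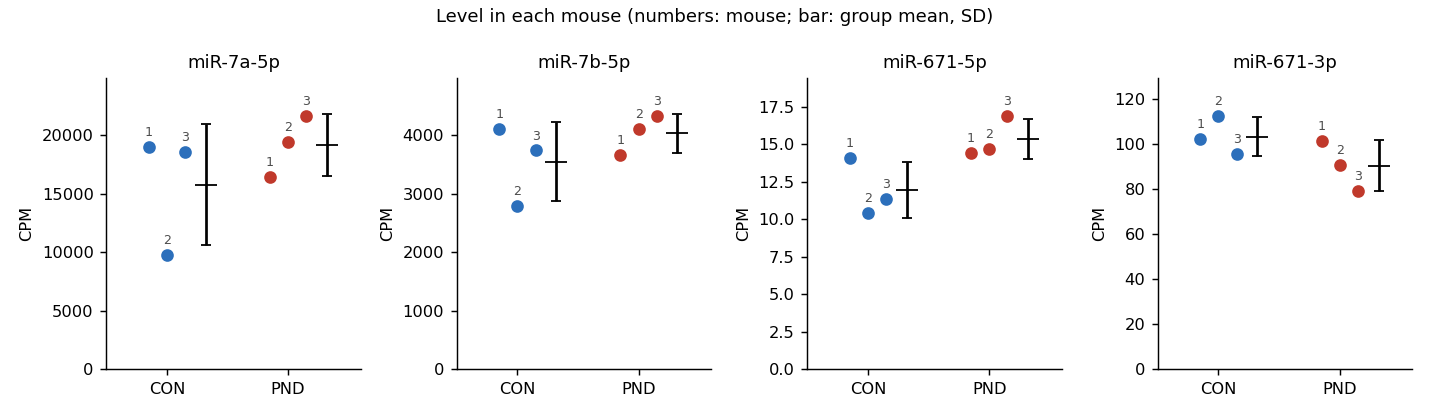
Level of each member in CPM (y axis, from 0) in the CON and PND groups. Each point is 1 mouse with its number, and the black bar gives the group mean and SD (n = 3). CON mouse 2 is lowest for miR-7a-5p (9771 CPM), miR-7b-5p and miR-671-5p and highest for miR-671-3p (112 CPM).

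By level the 4 members were ordered miR-7a-5p, miR-7b-5p, miR-671-3p and miR-671-5p in every library, and no neighbours in this order overlapped. The miR-7 sum was 173, 224 and 271 times the miR-671 sum in PND mice 1 to 3 and 199, 102 and 209 times in CON mice 1 to 3. miRNAs of different sequence can be ligated and amplified unequally, so these multiples compare reads rather than molecules.

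Of the 4 members, 0 had a limma p under 0.05 with more than a 2-fold difference, against 0.0841% of all 1189 entries (1 entry). None had a limma p under 0.05 either, against 5.13% of all entries, made up of 4.04% that were higher (48 entries) and 1.09% that were lower (13 entries) in the PND group. An adjusted p under 0.05 was reached by 0.421% of entries and by none of the members. The median log2 fold change was 0.05 over all entries and 0.14 over the 361 entries averaging 10 CPM or more. The differences of miR-7a-5p, miR-7b-5p and miR-671-5p had the same sign as these medians, and that of miR-671-3p had the opposite sign.

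**Figure D3:**
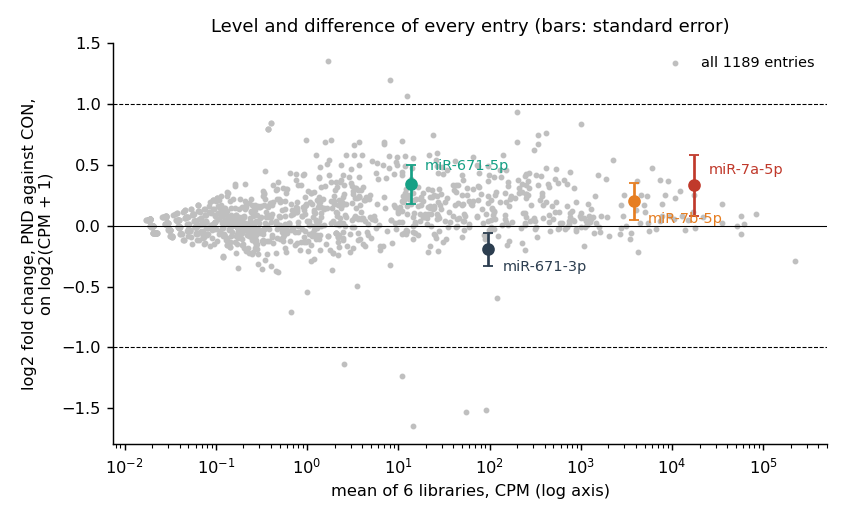
Mean level over the 6 libraries in CPM (x axis, log scale) against the log2 fold change of PND against CON on the log2(CPM + 1) scale (y axis), for all 1189 entries in grey. The 4 members are named, with bars for the standard error, and dashed lines mark 2-fold; the members lie between −0.19 and 0.34.

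The balance between arms was compared within libraries, since a ratio of this kind does not depend on the library total. The ratio of miR-671-3p to miR-671-5p was 7.03, 6.15 and 4.68 in PND mice 1 to 3 and 7.26, 10.8 and 8.39 in CON mice 1 to 3. Every CON mouse had the higher ratio, but CON mouse 1 and PND mouse 1 differed by less than their counting errors, which were 7.27% and 6.38% of the ratio. The geometric means were 5.87 for PND mice and 8.68 for CON mice, a log2 difference of −0.56 (1.48-fold), with an exact two-sided permutation p = 0.1, the smallest that this design allows. The difference was −0.41 when CON mouse 2 was left out, and −0.69 when CON mouse 1 was left out instead.

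The same ratio was formed for the 86 pairs of 3p and 5p entries that share a name and both averaged 10 CPM or more. The groups did not overlap with the PND mice lower for 3.49% of these arm pairs (3 of 86, miR-671 included) and with the PND mice higher for 5.81%. The 2 others with a lower ratio in the PND mice were miR-151 (−0.53) and miR-124 (−0.13), named here after their values were seen. The median absolute log2 difference of the 86 was 0.14. Among these 86, a larger absolute difference than that of miR-671 was measured for 1 arm pair, miR-30e (−0.72). Its groups overlapped, and it was also named after its value was seen. Over the 182 arm pairs with at least 3 reads of both arms in every library, the groups did not overlap for 8.24%. Their median absolute log2 difference was 0.22, and 19 had a larger difference than miR-671, whose 5p arm lies near 10 CPM.

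The ratio of miR-7a-5p to miR-7b-5p was 4.47, 4.73 and 5.00 in PND mice 1 to 3 and 4.62, 3.50 and 4.96 in CON mice 1 to 3. The groups overlapped, with a log2 difference of 0.13 and an exact permutation p = 0.6. Leaving out CON mouse 2 brought the difference to −0.02, and leaving out CON mouse 1 instead brought it to 0.18. miR-7a-5p was further below the other libraries in CON mouse 2 than miR-7b-5p was.

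The opposite arms of the miR-7 hairpins are usually discarded when the guide arm is loaded, and they were far less abundant. miR-7a-1-3p, from the Hnrnpk intron, was measured at 57.6, 66.0 and 75.8 CPM in PND mice 1 to 3 and at 69.7, 50.8 and 56.3 CPM in CON mice 1 to 3. miR-7a-2-3p, from Mir7-2, was measured at 26.9, 29.9 and 27.8 CPM in PND mice and at 36.5, 16.8 and 23.9 CPM in CON mice 1 to 3. Both had their lowest level in CON mouse 2, and the groups overlapped for each. miR-7b-3p stayed between 1.64 and 2.95 CPM in all libraries. All 3 arms had positive log2 fold changes (0.11 to 0.19, median 0.17), as did 776 of all 1189 entries, and 0 of 3 had a limma p under 0.05. When CON mouse 2 was left out, miR-7a-2-3p turned from 0.19 to −0.07, miR-7a-1-3p went from 0.17 to 0.08 and miR-7b-3p from 0.11 to 0.10. Without CON mouse 1 instead, they were at 0.47, 0.30 and 0.19. For miR-7a-2-3p the unadjusted limma p was then 0.0443 and the adjusted p 0.570.

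The opposite arms of Mir7-1 and Mir7-2 differ in sequence, whereas their guide arms do not, so only the former can be assigned to a hairpin. The ratio of miR-7a-1-3p to miR-7a-2-3p was 1.91 to 3.03 in the 6 libraries. The ratio of miR-7a-5p to miR-7a-1-3p was 285, 295 and 285 in PND mice 1 to 3 and 273, 192 and 330 in CON mice 1 to 3. The PND mice lay within the range of the CON mice, the log2 difference was 0.16 and the exact permutation p was 0.7. The log2 difference was −0.06 without CON mouse 2, and 0.19 without CON mouse 1 instead. miR-7a-5p from both hairpins is counted in the numerator, whereas the denominator comes from Mir7-1 only.

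**Figure D4:**
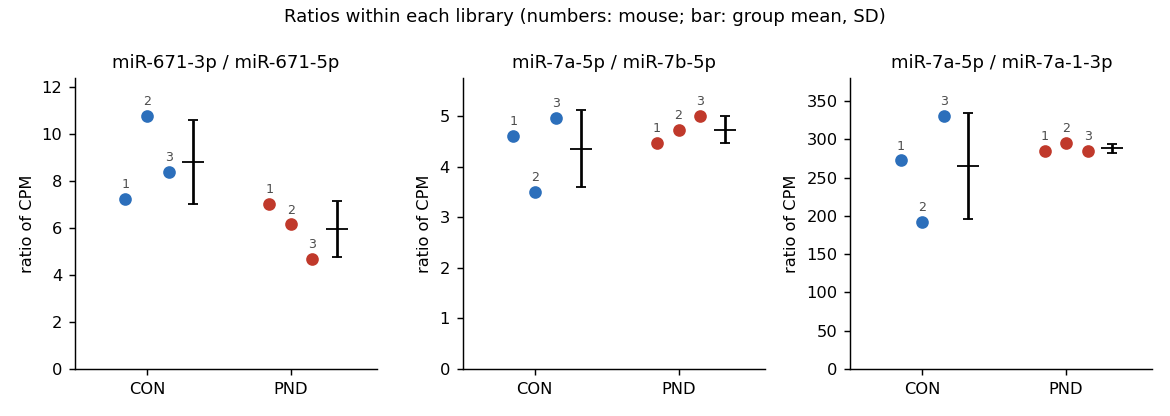
Ratios of CPM within each library (y axes, from 0) for the miR-671 arms, for miR-7a-5p to miR-7b-5p and for miR-7a-5p to miR-7a-1-3p. Each point is 1 mouse with its number, and the black bar gives the arithmetic mean and SD of the group (n = 3). The miR-671 ratio is 7.03 or lower in PND mice and 7.26 or higher in CON mice, while the other 2 ratios overlap.

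miR-7a-5p is 1 of 6 listed miRNAs for which an RNA that triggers their degradation has been described. The others are miR-29b-3p, miR-30b-5p, miR-30c-5p, miR-322-5p and miR-503-5p. The list leaves out miR-7b-5p, which pairs with the same Cyrano site and had a log2 fold change of 0.20, and 0.04 without CON mouse 2. All 6 had positive log2 fold changes with a median of 0.38, from 0.05 for miR-503-5p to 0.69 for miR-29b-3p, and 0 of 6 had a limma p under 0.05. Of all 1189 entries, 776 were positive, with a median of 0.05. All 6 were below their CON mean in CON mouse 2, as were 801 of all 1189 entries. For miR-29b-3p and miR-30b-5p the levels there were 79.5 and 437 CPM, against CON means of 157 and 657 CPM. The median of the 6 was 0.11 without CON mouse 2, against 0.03 over all entries. The log2 fold changes were then 0.33 for miR-322-5p, 0.26 for miR-29b-3p, 0.17 for miR-30b-5p and 0.04 for miR-30c-5p, a miRNA at a level close to that of miR-7a-5p. miR-503-5p, at a mean near 1 CPM, turned from 0.05 to −0.23.

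Of 11 neuron-enriched miRNAs, 8 had positive and 3 negative log2 fold changes, with a median of 0.24, and 0 of 11 had a limma p under 0.05. Over all 1189 entries, 776 were positive and 413 negative, with a median of 0.05. The counts were again 8 and 3 without CON mouse 2, but the median was 0.06. Over all entries 713 were then positive and 472 negative, with a median of 0.03. miR-138-5p, a synaptic miRNA, had a log2 fold change of 0.32 (SE 0.23), and 0.05 without CON mouse 2. miR-124-3p, a neuronal identity miRNA, had 0.24 (SE 0.15), and 0.11 without that mouse. miR-128-3p had −0.29 (SE 0.14), and −0.16 without it, with 292349 CPM in CON mouse 2 against a CON mean of 245091 CPM. In CON mouse 2, 9 of the 11 were below their CON mean, as were 801 of all 1189 entries. The exceptions among the 11 were miR-128-3p and miR-132-3p. The list summed to its highest level, 396081 CPM, in CON mouse 2, but most of this was miR-128-3p. The other 10 miRNAs were summed without miR-128-3p after the values were seen. Their sum was lowest in CON mouse 2, at 103732 CPM against 112178 to 139236 CPM in the other 5 libraries. Of these 103732 CPM, 74050.5 CPM were miR-9-5p. miR-7 was also lowest in CON mouse 2, as were 67.6% of the 361 entries averaging 10 CPM or more.

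Marker lists of other tissues were summed in each library, since miR-7 is also high in pituitary and other endocrine cells. miR-375-3p, the endocrine marker, was at 24.0 to 31.8 CPM in the PND mice and 23.9 to 30.6 CPM in the CON mice, with 24.2 CPM in CON mouse 2. Of the 8 olfactory or epithelial markers, 0 of 8 had a limma p under 0.05. All 8 had negative log2 fold changes, with a median of −0.97, and of −1.91 without CON mouse 2. Their sums were 145, 182 and 168 CPM in PND mice 1 to 3 and 1646, 67.0 and 198 CPM in CON mice 1 to 3. The high end of the CON sums thus came from CON mouse 1 alone, and these fold changes are not given without that mouse. In CON mouse 1, where these markers were highest, miR-7a-5p was at 18993 CPM, between CON mouse 3 (18591 CPM) and PND mouse 2 (19458 CPM).

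The remaining lists overlapped between groups. The 4 red blood cell markers summed to 47.1 to 101 CPM in PND mice and 31.9 to 54.7 CPM in CON mice, and the 3 oligodendrocyte markers to 1575 to 1765 and 1384 to 1607 CPM. The 2 endothelial markers summed to 13326 to 13992 and 11991 to 14372 CPM, and the 2 choroid plexus markers to 764 to 795 and 585 to 926 CPM. The 3 hindbrain or spinal cord markers that were listed summed to 48.9 to 60.6 and 42.0 to 57.9 CPM. Of these, miR-196a-5p was near the floor in both groups, at 0 in all PND libraries and at a mean of 0.0425 CPM in the CON mice. The 3 leukocyte or microglia markers summed to 11.5 to 21.4 and 7.41 to 15.8 CPM, and 1 of them, miR-142a-5p, had a limma p under 0.05 (2.11 ± 0.294 against 1.21 ± 0.449 CPM, SD, n = 3 each, adjusted p = 0.768), with a log2 fold change of 0.51, and 0.35 without CON mouse 2. CON mouse 2 had the lowest sum for all of these lists, and the part of other cells in the members' levels was not tested.

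For each member, the 3 entries most like it were found among 359 other named miRNAs that averaged 10 CPM or more, by the SD over the 6 libraries of the log2 ratio to the member. This describes 6 libraries that differ in composition, and it carries no test. Closest to miR-7a-5p were miR-344-3p (0.061), miR-138-5p (0.064) and miR-700-5p (0.066), against a median of 0.32 over the candidates. miR-7b-5p came only at position 63 of this list, with an SD of 0.19. Closest to miR-7b-5p were miR-487b-3p (0.027), miR-425-5p (0.030) and miR-384-5p (0.036).

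Closest to miR-671-5p were miR-107-3p (0.053), miR-376c-3p (0.072) and miR-3535 (0.074). The entries most like miR-671-3p were miR-674-3p (0.044), miR-744-5p (0.061) and miR-370-3p (0.084), all with negative log2 fold changes (−0.11 to −0.17). miR-671-3p stood at position 329 of 359 in the list of miR-671-5p, with an SD of 0.39, although the arms come from the same hairpin. It stood at position 346 in the list of miR-7a-5p, with an SD of 0.56.

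**Figure D5:**
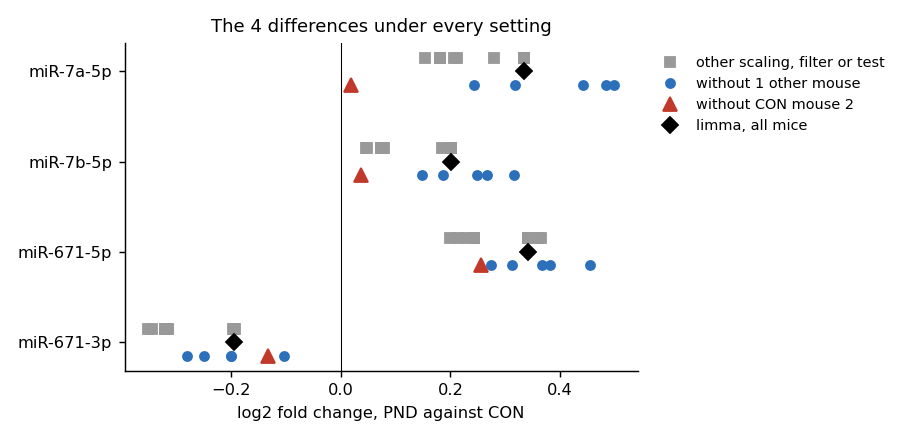
Log2 fold change of PND against CON (x axis) for each member under every setting. Black diamonds are limma with all mice, grey squares other scalings, filters or tests, blue circles the fits without 1 of the other 5 mice, and red triangles the fit without CON mouse 2, which moves miR-7a-5p from 0.33 to 0.02; no member crosses 0.

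Across the 18 alternative settings each member kept its sign, and the lowest adjusted p of any of them was 0.570. The log2 fold change ranged from 0.02 to 0.50 for miR-7a-5p, from 0.04 to 0.32 for miR-7b-5p, from 0.20 to 0.46 for miR-671-5p and from −0.35 to −0.10 for miR-671-3p. Without PND mouse 3 the values were 0.24, 0.15, 0.27 and −0.10, in the same order. miR-671-5p had an unadjusted p under 0.05 in 2 of 18 settings, limma without trend and limma without CON mouse 1.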

How the data were processed

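Per the labels, RNA was extracted from prefrontal cortex with a column kit and sequenced as small RNA libraries. The library kits named by the labels and by the study's methods differ. Bowtie 0.12.2 and the builds mm8 and mm9 are listed in the submitters' processing notes, and the rule for reads matching several miRNAs is not given in the sources used here. The deposited values are CPM (named TPM by the authors), each library summing to the same total. All values were whole multiples of 1 read within 0.01 reads, so read numbers could be recovered (100% of values), and 3 reads correspond to 0.154 to 0.202 CPM. The counting errors given cover sampling of reads only.

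All 1189 entries were tested together with limma 3.58.1 (R 4.3.3; lmFit, eBayes with trend) on log2(CPM + 1), PND against CON, with no covariate and Benjamini-Hochberg adjustment over all entries. A call needed a limma p under 0.05 with more than a 2-fold difference in either direction. Such folds understate differences of low entries. Ratios were tested on log2 CPM without a pseudocount by the exact permutation test (scipy 1.17.1). The method was also run on simulated counts with changes larger than those measured for the members, which gives no check of differences of their size. Count tests on the recovered reads (edgeR 4.0.16, DESeq2 1.42.0), TMM and DESeq2 size factors, filters and leaving out each mouse were the alternatives.

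Entries named were the members, the opposite arms of their hairpins, the degradation and neuron-enriched lists, marker lists by their sums, and the 3 most alike entries of each member. The members and lists were chosen with earlier results of these data known. Sequences came from RefSeq and the GENCODE M21 annotation (GRCm38.p6), and the tables themselves carry no coordinates. No pair of replicates agreed within sampling noise.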

Additional observations from a re-analysis of the deposited data

How the results depend on the processing

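The 4 members kept their sign and stayed short of the limits for a call under all 18 alternatives. Leaving out 1 mouse gave log2 fold changes of 0.02 to 0.50 for miR-7a-5p, 0.04 to 0.32 for miR-7b-5p, 0.26 to 0.46 for miR-671-5p and −0.28 to −0.10 for miR-671-3p, and 0.03 to 0.41 for the miR-7 sum. The log2 difference of the miR-671 ratio ranged from −0.69 to −0.40, that of miR-7a-5p to miR-7b-5p from −0.02 to 0.24 and that of miR-7a-5p to miR-7a-1-3p from −0.06 to 0.33, and the last 2 turned negative, at −0.018 and −0.058, only without CON mouse 2. With 3 mice a group the smallest exact p is 0.1, so the ratios could not pass 0.05 under any of these choices.

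The number of entries called over the whole table was 1 with limma on log2(CPM + 1), and it changed with the pseudocount, the filter, the test and the mice included. The count tests differ from limma in several ways at once, and which of these moved the number was not tested. It was 22 with a pseudocount of 0.1, 42 with folds taken from the ratio of group means, 32 by limma-voom, 32 by the edgeR quasi-likelihood test, 31 by the edgeR exact test and 11 by DESeq2 on the recovered reads. It was 0 over entries with a mean of at least 10 CPM, 0 by limma without trend, and 0 to 1 when 1 mouse was left out, with 0 without CON mouse 1 or PND mouse 2. Without CON mouse 1, 91 entries had p under 0.05 by limma, against 61 with all mice. TMM and DESeq2 size factors and a minimum of 10 reads in 3 libraries left it at 1, and the median log2 fold change of all entries went from 0.05 to 0.01 and 0.00 with the first 2 scalings.

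Whether replicate numbers pair the samples cannot be decided from 3 mice a group. The deviations of same-numbered PND and CON mice correlated at −0.13, 0.12 and 0.51 over 361 entries. PND mice 2 and 3 were closest to the CON mouse of their own number, whereas PND mouse 1 was closest to CON mouse 2 (0.50). The fit with the replicate block called 2 entries, none of them a member, and in a sign-flip test of the ratios 0.25 is the smallest p that 3 pairs allow. For miR-671-5p the depth limits what can be seen, since 155 to 299 reads per library leave a counting error of up to 8.03%.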
